A study of Mus musculus with 10 samples.

Results

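Conjugation is the step in which a cell couples a small molecule to a polar group so that it can be excreted. UDP-glucuronosyltransferases (the Ugt genes here except Ugt8a) transfer glucuronic acid from UDP-glucuronate, and sulfotransferases (Sult genes) transfer sulfate from the donor PAPS. Glutathione transferases (Gst genes, with the membrane-bound Mgst genes) couple glutathione to electrophiles. The intestinal epithelium meets drugs, dietary compounds, bilirubin, bile acids and steroids, and expresses members of all 3 classes. The genes described here are those whose symbol names a Ugt, Sult, Gst (alpha, kappa, mu, omega, pi, theta or zeta class) or Mgst gene and that reached an expected count of at least 10 in at least 2 libraries. Of 53 matching symbols, 38 met this minimum and 15 did not, out of 19456 genes listed in at least 1 library. The 38 genes were 10 Ugt, 6 Sult and 22 Gst or Mgst genes, in 12 subfamilies. Counts and sums of the Ugt genes include Ugt8a, which transfers galactose and not glucuronic acid.

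Poly-A RNA of mouse intestine was sequenced on the BGISEQ-500 in 10 libraries of strain C57BL/6. The untreated groups were wild type (WT, 3 libraries) and transgenic mice that overexpress ITGB6, the beta 6 integrin subunit (TG, 3 libraries). The other groups were WT and TG mice (2 libraries each) given 2.5% dextran sulfate sodium (DSS) by mouth, a polymer that injures the epithelium of the large bowel and serves here to set up intestinal fibrosis. The labels give no age, no sex, no length of treatment, no promoter of the transgene and no statement that libraries came from separate animals, so each p-value measures the spread between these libraries, which may be technical.

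Depth, the sum of expected counts, was 15393859 to 18284704 per library. The transgene was seen as a human ITGB6 entry at 3632 to 3913 CPM (counts scaled to library size, here with TMM factors) in untreated TG, 2201 to 2453 in TG after DSS and at most 1.13 in the WT libraries. The labelled tissue held epithelium (7 pan-epithelial markers summed to 14115 to 19770 CPM) and large-bowel markers (9 of 10 listed, 4514 to 12494 CPM). The 12 small-intestinal enterocyte markers summed to 417 to 1086 CPM, with Mep1a at 137 to 470 and Fabp2 at 85.1 to 352 CPM, while Lct and Fabp1 stayed at or below 0.41 CPM. The 6 Paneth cell markers summed to 16.4 to 1294 CPM. Smooth muscle markers summed to 6.43 to 9.72 CPM and hepatocyte markers to 7.45 to 18.5 CPM. Xist was at 0 to 0.417 CPM in the 6 untreated libraries and at 307 to 739 CPM in the 4 DSS libraries, and Kdm5d of the Y chromosome at 26.6 to 44.2 CPM against 0, so the sex of the mice and DSS cannot be told apart in any DSS comparison. TG untreated 1 stood apart from its group, with a Spearman correlation of 0.9734 and 0.9754 with the other TG untreated libraries against 0.9932 between those. WT DSS 2 had the lowest summed large-bowel markers (4514 CPM, against 7069 in WT DSS 1) and the highest summed stem and cycling markers (920 CPM, against 335 to 385 in the other DSS libraries).

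Several of these genes share sequence, which decides how far their values can be separated. The Ugt1a genes lie in 1 cluster on chromosome 1 (GRCm38), where each has its own first coding exon and all splice to the same downstream exons, which begin at position 88215044. The junctions are shown because they join each gene's own exon to the end that all of them share. Each line gives 36 bases of a gene's own exon in lower case followed by 36 bases of the shared exon in capitals, from GENCODE M21 transcripts on the plus strand.
Ugt1a1: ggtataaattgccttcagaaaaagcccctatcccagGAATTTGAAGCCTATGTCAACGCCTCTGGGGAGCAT
Ugt1a2: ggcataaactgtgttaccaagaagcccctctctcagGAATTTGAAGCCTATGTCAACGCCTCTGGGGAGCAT
Ugt1a6a: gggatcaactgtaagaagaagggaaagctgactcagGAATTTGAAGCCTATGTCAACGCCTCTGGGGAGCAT
Ugt1a6b: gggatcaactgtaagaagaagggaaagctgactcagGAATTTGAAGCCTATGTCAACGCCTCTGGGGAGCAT
Ugt1a7c: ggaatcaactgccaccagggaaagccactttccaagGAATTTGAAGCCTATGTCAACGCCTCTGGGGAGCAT

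The shared end held 738 coding bases, 45.9 to 46.2% of the 5 coding sequences. The own exons nearest to it were 88211959 to 88212871 for Ugt1a1, 88200601 to 88201500 for Ugt1a2, 88138473 to 88139331 for Ugt1a6a, 88106941 to 88107799 for Ugt1a6b and 88095064 to 88095978 for Ugt1a7c. The junctions of Ugt1a6a and Ugt1a6b were identical. Their coding sequences of 1596 bases differed at 26 positions (98.4% identity), and the stretch of coding positions 296 to 355 shows the differing bases in capitals.
Ugt1a6a: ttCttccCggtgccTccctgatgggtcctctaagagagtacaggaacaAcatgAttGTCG
Ugt1a6b: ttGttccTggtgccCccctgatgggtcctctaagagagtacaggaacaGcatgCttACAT

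The pi class genes Gstp1 and Gstp2 are neighbours on chromosome 19. Their coding sequences of 633 bases differed at 12 positions (98.1% identity), and the first 60 coding bases are shown with the differing bases in capitals.
Gstp1: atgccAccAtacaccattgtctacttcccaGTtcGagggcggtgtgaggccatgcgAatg
Gstp2: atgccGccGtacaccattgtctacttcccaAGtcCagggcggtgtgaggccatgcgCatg

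As a measure of shared reads, the share of a gene's 50-base windows found in another matching gene was 80.6% for Ugt1a6a, 80.7% for Ugt1a6b, 63.7% for Ugt1a2, 58.2% for Ugt1a1 and 40.5% for Ugt1a7c. It was 62.3% for Gstp1, 64.3% for Gstp2, 44.6% for Gsta1 (all with Gsta2) and 41.7% for Ugt2b5 (mostly with Ugt2b38). Gstm3 had 15.8%, Gstm1 10.9% and Gstm6 6.88%, and every other gene at most 2.07%. The deposited expected counts split shared reads between copies by an estimate, so the values of these genes one by one are uncertain to that extent. For Gsta1 and Ugt2b5 the copies were near 0: Gsta2 reached at most 3.55 expected counts and Ugt2b38 1.32 in any library.

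Compared per length in the deposited FPKM, the genes ranged from 0.227 to 802 FPKM. Mgst3, a membrane-bound glutathione transferase and peroxidase, had the highest mean over the 10 libraries (802 FPKM). The next were Gstp1 (679), Gsto1 of the omega class (401), the mu class gene Gstm1 (205), the phenol sulfotransferase Sult1a1 (188), Mgst2 (174) and Mgst1 (168). Ugt2b34 (157), Ugt1a7c (144) and Gstp2 (122) completed the 10 highest. The lowest means were Sult6b1 (0.227 FPKM), Gsto2 (0.368) and Ugt1a2 (0.48), and 31 of the 38 genes were above 10 FPKM. Among the abundant genes Gsto1 varied little, with 453, 444 and 451 CPM in untreated WT, 542, 424 and 442 CPM in untreated TG, 473 and 461 CPM in WT after DSS and 477 and 564 CPM in TG after DSS, and it passed in no comparison in edgeR. The 15 genes under the minimum included Sult1e1, the estrogen sulfotransferase (at most 9 expected counts in a library), and Ugt2b1, Ugt1a9 and Ugt1a5 (at most 5, 2.59 and 15.8).

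**Figure D1:**
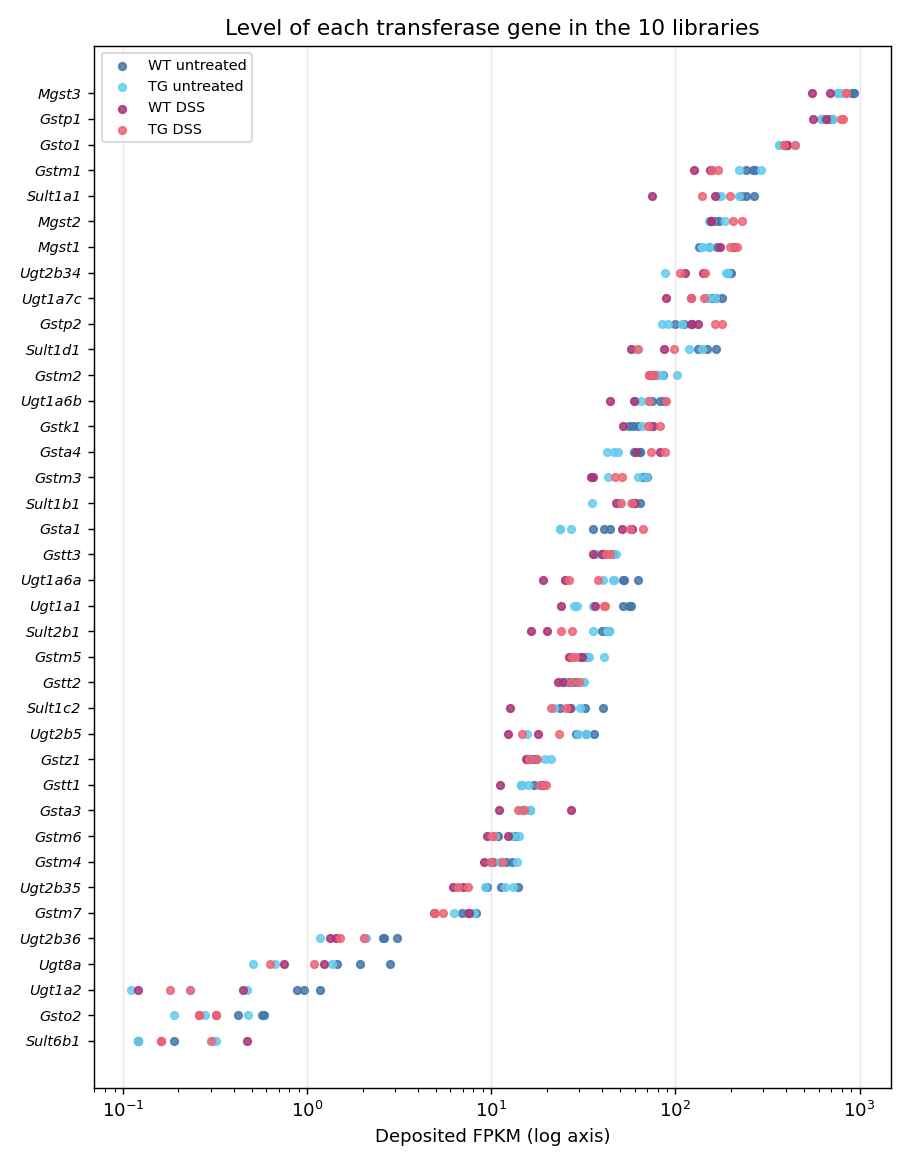
Deposited FPKM (log axis) of the 38 genes, 1 point per library, coloured by group and ordered by the mean over the 10 libraries. Mgst3 and Gstp1 stand at the top with means of 802 and 679 FPKM, and Sult6b1, Gsto2 and Ugt1a2 at the bottom with means under 1 FPKM.

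Summed over each class on the CPM scale, the 10 Ugt genes stood at 1754 ± 14.2 (SD, n = 3) in untreated WT and 1501 ± 135 (n = 3) in untreated TG. After DSS they stood at 1094 ± 257 (n = 2) in WT and 1383 ± 185 (n = 2) in TG. The sulfotransferases followed the same order of group means, at 926 ± 69.3, 746 ± 143, 539 ± 201 and 676 ± 126 CPM. The glutathione transferases did not: their sums were 2625 ± 39.1, 2589 ± 288, 2359 ± 49.7 and 2991 ± 84.8 CPM, highest in TG after DSS. In this bulk tissue, fewer cells of a type and less RNA per cell cannot be told apart.

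**Figure D2:**
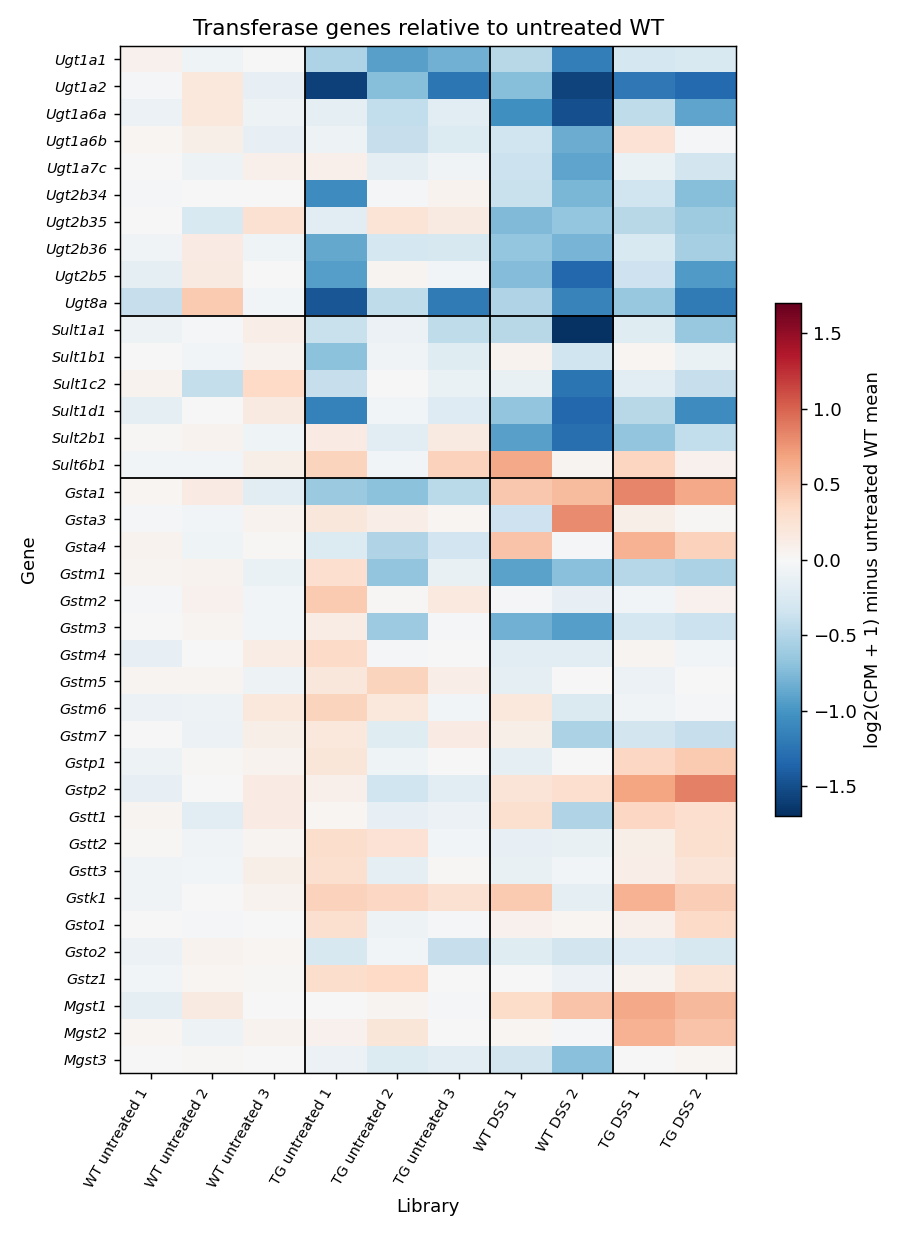
Each of the 38 genes (rows) in each library (columns) as log2(CPM + 1) minus the mean of untreated WT, with lines between the groups and between the Ugt, Sult and Gst or Mgst genes. WT DSS 2 is the column with most blue, 19 genes lying more than 0.5 below untreated WT against 10 in WT DSS 1, and in TG untreated 1 the 9 genes below -0.5 lie mostly among the Ugt and Sult genes.

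The first comparison set WT after DSS against untreated WT, groups that also differ in sex by Xist and Kdm5d. Ugt genes fell: 7 of 10 passed as lower and none as higher, led by Ugt1a6a, which conjugates small planar phenols, and Ugt2b5. Of the 7, 4 were Ugt1a genes, which share sequence, so counts of Ugt genes here and below are not counts of separate observations. Among sulfotransferases 2 of 6 passed, both lower, namely the cholesterol sulfotransferase Sult2b1 and Sult1a1. The glutathione transferases were mixed, with 3 lower (Gstm1, Gstm3, Mgst3) and 2 higher (Gsta1, Mgst1) of 22. In all, 14 of 38 genes passed (36.8%) in edgeR's quasi-likelihood test at a Benjamini-Hochberg adjusted p under 0.05 over the 14072 genes tested, 12 lower and 2 higher. Over all genes tested 19.8% passed, 9.62% as lower and 10.2% as higher. The median log2 fold change of the 38 genes was -0.21 against 0.00 over all genes, and 29 of 38 were below 0 against 49.8%. The WT DSS and untreated WT libraries did not overlap for 19 genes that were lower and 4 that were higher, beside 29.1 and 28.4% of all genes.

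Among the Ugt1a genes, Ugt1a6a had 166, 201 and 167 CPM in untreated WT and 85.7 and 62.1 CPM in WT after DSS. Both DSS libraries lay far below all 3 untreated ones. The log2 fold change was -1.27 (SE 0.19, edgeR adjusted p = 0.00224), and it passed in every alternative fit and without any single library, from -1.52 to -1.06. Its near copy Ugt1a6b had 183, 192 and 163 CPM untreated and 141 and 99.1 after DSS, again with no overlap, a log2 fold change of -0.58 (SE 0.17, adjusted p = 0.0376). With 80.6% of its windows shared with Ugt1a6b, the larger fall given to Ugt1a6a rests on the few bases that separate the copies.

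Ugt1a1, the bilirubin-conjugating enzyme, had 179, 162 and 172 CPM in untreated WT and 123 and 75.3 CPM after DSS. Both DSS libraries were lower, WT DSS 2 by more, and the log2 fold change was -0.79 (SE 0.19, adjusted p = 0.0198). Ugt1a7c, the most abundant Ugt1a gene, had 535, 501 and 563 CPM untreated and 412 and 286 CPM after DSS, without overlap (log2 fold change -0.61, SE 0.16, adjusted p = 0.025). Summed over the 5 Ugt1a genes, so that reads shared among them count once whichever gene they are given to, the level was 1066, 1060 and 1068 CPM in untreated WT and 763 and 523 CPM after DSS.

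In the Ugt2b cluster on chromosome 5, whose enzymes conjugate steroids and other lipophilic compounds, 3 of 4 genes fell. Ugt2b5 had 53, 65.7 and 59.1 CPM in untreated WT and 34.9 and 22.7 CPM after DSS (log2 fold change -1.04, SE 0.31, adjusted p = 0.0403). Ugt2b36, a low gene, had 4.69, 5.53 and 4.68 CPM untreated and 2.78 and 2.43 CPM after DSS (-0.93, SE 0.28, adjusted p = 0.0404). Neither overlapped between the groups. Ugt2b35 had 37, 30.8 and 44.5 CPM against 21.6 and 23 CPM (-0.75, SE 0.18, adjusted p = 0.0176). Ugt2b34, the most abundant member of the cluster, was as separate, at 574, 585 and 585 CPM against 448 and 338 CPM, yet did not pass (log2 fold change -0.56, SE 0.29, adjusted p = 0.199). Without TG untreated 1, where it had 277 CPM against 568 and 604 in the rest of that group, it passed at the same fold change (adjusted p = 0.0171).

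Sult2b1 had 46.1, 47.3 and 43.2 CPM in untreated WT and 23.6 and 18.1 CPM after DSS. Both DSS libraries lay far below the untreated ones, and the log2 fold change of -1.13 (SE 0.16, adjusted p = 0.00184) passed in every alternative fit and without any single library. Sult1a1 had 316, 333 and 363 CPM untreated and 242 and 104 CPM after DSS, so that WT DSS 2 was far lower than WT DSS 1. Its log2 fold change was -0.97 (SE 0.29, adjusted p = 0.0438), and -0.48 (adjusted p = 0.201) without WT DSS 2. Sult1d1, a sulfotransferase of catecholamines, had 309, 345 and 381 CPM against 215 and 136 CPM and did not pass in edgeR (-0.98, SE 0.32, adjusted p = 0.056). It passed in DESeq2 (adjusted p = 0.0119), with upper quartile (0.0442) or total count scaling (0.0493), with no low-count filter (0.0442), with only the groups compared (0.0172), and without TG untreated 1 (0.00832) or WT DSS 1 (0.0491).

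Of the mu class, Gstm1 had 330, 334 and 296 CPM in untreated WT and 170 and 195 CPM after DSS (log2 fold change -0.81, SE 0.22, adjusted p = 0.03). Gstm3 had 77.9, 80 and 75.1 CPM against 43.8 and 40.1 CPM (-0.89, SE 0.19, adjusted p = 0.0114). In both genes the DSS libraries were close to each other and well below the untreated ones, and the other 5 mu class genes did not pass (-0.21 to -0.03). Mgst3 had 535, 547 and 535 CPM against 432 and 328 CPM, also without overlap (-0.50, SE 0.13, adjusted p = 0.0212). In the other direction, Gsta1, an alpha class enzyme that also reduces lipid peroxides, had 33.2, 35.5 and 28.5 CPM untreated and 44.5 and 47.3 CPM after DSS (0.50, SE 0.13, adjusted p = 0.0257). Mgst1, a microsomal peroxidase and transferase, had 120, 148 and 133 CPM against 165 and 186 CPM, the DSS libraries above all untreated ones (0.39, SE 0.11, adjusted p = 0.0383).

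The count of 14 depended on single libraries, and so did the count over all genes (19.8% with all libraries). Without WT DSS 2 most calls ended, among the 38 genes and over all genes. In that fit WT DSS 1 alone stands for its group and is assumed to vary like the others. There the log2 fold change was -1.06 for Ugt1a6a, -0.95 for Sult2b1 and -0.83 for Gstm3. It was 0.45 for Gsta1, -0.84 for Ugt2b36, 0.30 for Mgst1 and -0.77 for Ugt2b5. Without WT untreated 1 the count was 4 (Ugt1a6a, Sult2b1, Gstm3 and Ugt2b35), beside 10.8% of all genes. Without WT untreated 3 it was 3 (Ugt1a6a, Sult2b1 and Gstm3), beside 10.8%. Without WT untreated 2 it was 8, beside 10.7%, and the calls of Ugt2b5 (adjusted p = 0.109), Sult1a1 (0.0917), Ugt2b36 (0.115), Gstm1, Ugt1a6b and Mgst3 ended. Leaving out WT DSS 1 ended the calls of Gstm1, Ugt2b35 and Ugt2b36 (0.0823) but gave 15 in all, Sult1a1 moving to -1.69 against the lone WT DSS 2. The TG libraries enter only through the shared spread, and leaving out TG untreated 2, TG untreated 3 or a TG DSS library ended the call of Sult1a1 (0.0512 to 0.0599). TG untreated 3 and each TG DSS library also ended those of Mgst1 (0.0544 to 0.0584) and Ugt1a6b, TG untreated 3 that of Ugt2b5 (0.052), and each TG DSS library that of Ugt2b36 (0.0535 and 0.0542). Scaling to the total count moved the split over all genes from 1434 higher and 1354 lower to 1146 and 1700, and that of the 38 genes from 2 and 12 to 1 and 14.

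Large-bowel markers moved alongside: 5 of 9 tested were lower and 1 higher after DSS in WT, and their sums were 9903 to 12494 CPM in untreated WT against 4514 and 7069 CPM. Small-intestinal enterocyte markers (8 tested, 4 lower, 1 higher) summed to 1074 to 1086 CPM against 417 and 637 CPM. Of other cell markers, 4 of 4 neutrophil markers were higher (median log2 fold change 4.65), and 3 of 3 erythrocyte (-4.65), 4 of 4 tuft cell (-1.23) and 2 of 4 Paneth cell markers (-1.66) were lower. Also higher were 2 of 5 enteroendocrine (0.28) and 1 of 7 goblet cell markers (0.72), and 2 of 2 endothelial markers were lower (-1.44). Leukocyte markers (8 tested, 2 lower, 1 higher, -1.75) and stem and cycling markers (4 tested, 2 lower, 2 higher, 0.11) were mixed. None of the 7 pan-epithelial markers passed in that comparison in edgeR, at an unadjusted p under 0.05 or in DESeq2 (median log2 fold change -0.02). The part of these changes in cell markers in the fall of the transferase genes was not tested.

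**Figure D3:**
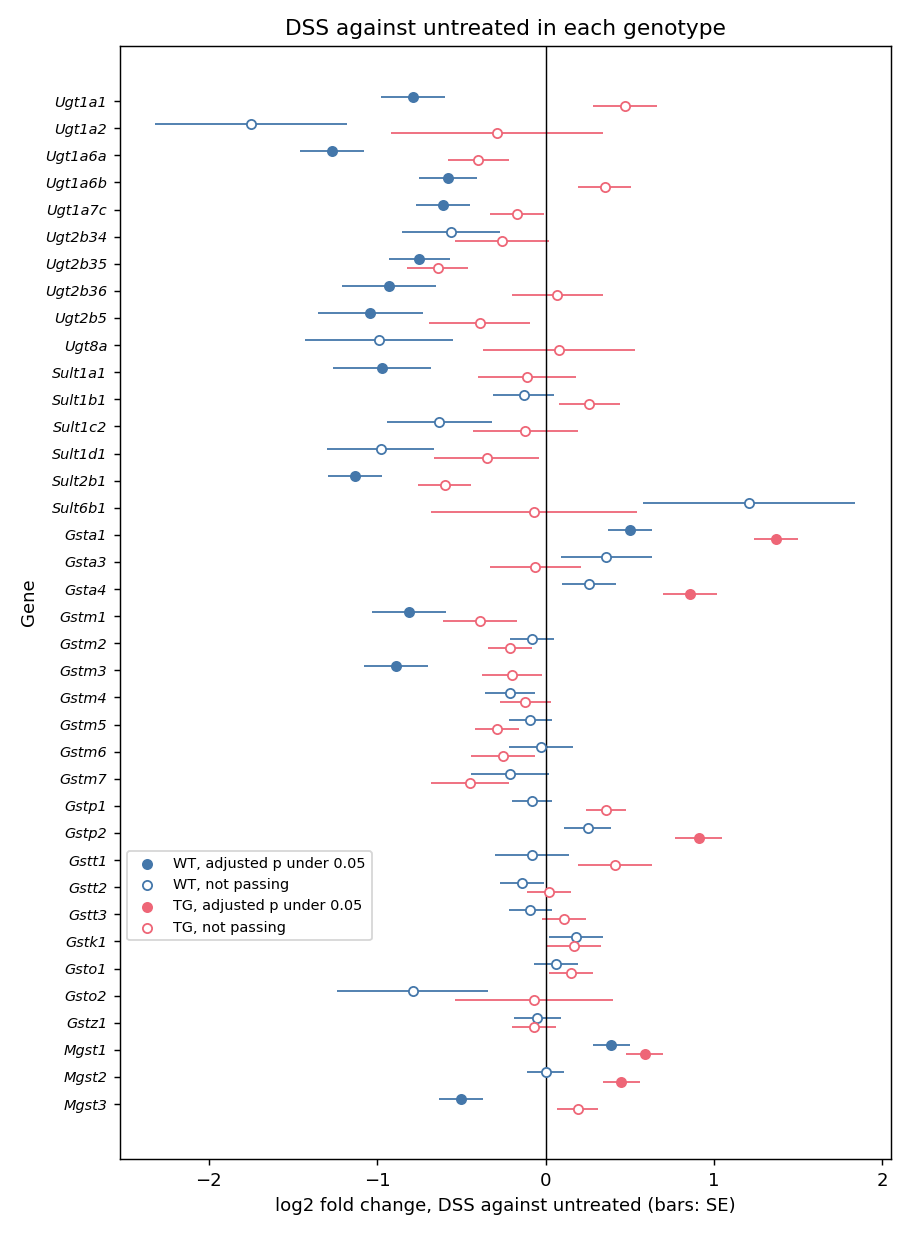
Log2 fold change of DSS against untreated in WT (blue) and in TG (red) for each of the 38 genes, with standard errors as bars and filled points for an adjusted p under 0.05. In WT the filled points lie mostly left of 0 (12 of 14), in TG all 5 lie right of 0.

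The same comparison in TG mice, again of groups that differ in sex, gave another set of calls. No Ugt gene (0 of 10) and no Sult gene (0 of 6) passed in edgeR, while 5 of the 22 glutathione transferases rose: Gsta1, Gsta4, Gstp2, Mgst1 and Mgst2. That is 5 of 38 genes (13.2%), all higher, beside 5.48% of all genes tested, 3.33% as higher and 2.15% as lower. At an unadjusted p under 0.05 there were 7 higher and 3 lower, and the lower ones were Sult2b1, Ugt2b35 and Gstm5. DESeq2 called the 5 as higher and Sult2b1 and Ugt2b35 as lower, beside 8.84% of all genes. The median log2 fold change was -0.07 against 0.01 over all genes. Libraries did not overlap for 11 genes that were higher and 5 that were lower, beside 19.1 and 16.0% of all genes.

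Gsta1 had 20.4, 19.5 and 23.2 CPM in untreated TG and 58 and 51 CPM in TG after DSS. Each DSS library was far above each untreated one, and the log2 fold change of 1.37 (SE 0.13, adjusted p = 0.000386) passed in every alternative fit and without any single library, from 1.28 to 1.46. Gsta4, which conjugates the lipid peroxidation product 4-hydroxynonenal, had 48.2, 39.7 and 45.2 CPM untreated and 86.4 and 75.1 CPM after DSS (0.86, SE 0.16, adjusted p = 0.0109). Gstp2 had 85.6, 63.5 and 71.5 CPM against 130 and 147 CPM (0.91, SE 0.14, adjusted p = 0.00477). None of the 3 genes overlapped between the groups. Gstp1, with which Gstp2 shares most windows, had 531, 438 and 459 CPM against 590 and 631 CPM, higher without overlap, and did not pass (0.36, SE 0.12, adjusted p = 0.112).

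Mgst1 had 133, 138 and 131 CPM in untreated TG and 208 and 196 CPM after DSS (log2 fold change 0.59, SE 0.11, adjusted p = 0.0157). Mgst2, which makes leukotriene C4 besides acting as a peroxidase, had 96.2, 106 and 91.9 CPM against 139 and 129 CPM (0.45, SE 0.11, adjusted p = 0.0357). Both were higher in both DSS libraries than in every untreated one. Mgst3 had 502, 457 and 472 CPM against 535 and 551 CPM and did not pass (0.19, SE 0.12, adjusted p = 0.453).

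Of the glucuronosyltransferases, Ugt1a6a had 160, 132 and 156 CPM in untreated TG and 131 and 95 CPM after DSS (log2 fold change -0.40, 95% interval -0.81 to 0.01). Ugt1a1 had 119, 89.7 and 96.7 CPM against 139 and 143 CPM (0.47, 0.05 to 0.89, adjusted p = 0.193). Ugt1a1 thus lay higher after DSS in TG, without overlap, and lower in WT. Ugt2b35, at 32.4, 43.5 and 41.1 CPM against 26.3 and 23.9 CPM, was the lowest by fold change (-0.64, SE 0.18, adjusted p = 0.0683). Sult2b1 had 50, 39.9 and 50.9 CPM against 28.2 and 33.7 CPM, lower in both DSS libraries, and did not pass (-0.60, SE 0.16, adjusted p = 0.056).

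The count of 5 became 3 without TG untreated 3, where 3.03% of all genes passed against 5.48% with all libraries. Without either TG DSS library the count was lower still, among the 38 genes and over all genes. In those fits the other TG DSS library alone stands for its group. Gstp2 lost its call without TG DSS 2 (adjusted p = 0.0722) and Gsta4 without either TG DSS library (0.108 and 0.0578). Mgst1 lost it without TG untreated 3 (0.0574), TG DSS 1 (0.127) or TG DSS 2 (0.101), and Mgst2 without any of those (0.116, 0.229 and 0.159) or any untreated WT library (0.0573 to 0.0705). Without TG untreated 1, the library that stood apart, 7 genes passed: the 5, Gstp1 (0.44, adjusted p = 0.0281) and, as lower, Ugt2b35 (-0.75, adjusted p = 0.0152). Over all genes the share that passed rose in that fit too, to 11.9%. Scaling to the total count moved the split over all genes from 468 higher and 303 lower to 413 and 402, and that of the 38 genes from 5 and 0 to 4 and 1, where Sult2b1 passed as lower (adjusted p = 0.024) and Mgst2 did not pass. Large-bowel markers in TG were 3 higher and 0 lower of 9 tested, with sums of 5845 to 9486 CPM untreated and 8579 to 10667 CPM after DSS. Of other cell markers, 3 of 4 neutrophil (median log2 fold change 3.68), 3 of 5 enteroendocrine (0.85) and 2 of 7 goblet cell markers (-0.19) were higher. Of 8 leukocyte markers 1 was higher (-1.08), and 1 of 2 endothelial (-1.26) and 1 of 8 small-intestinal enterocyte markers (-0.47) were lower. Lower were 3 of 3 erythrocyte markers (-2.09), 3 of 6 fibroblast markers (-1.82), 2 of 4 tuft cell markers (-1.24) and 2 of 4 Paneth cell markers (-2.32). The part of any of these in the results was not tested.

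**Figure D4:**
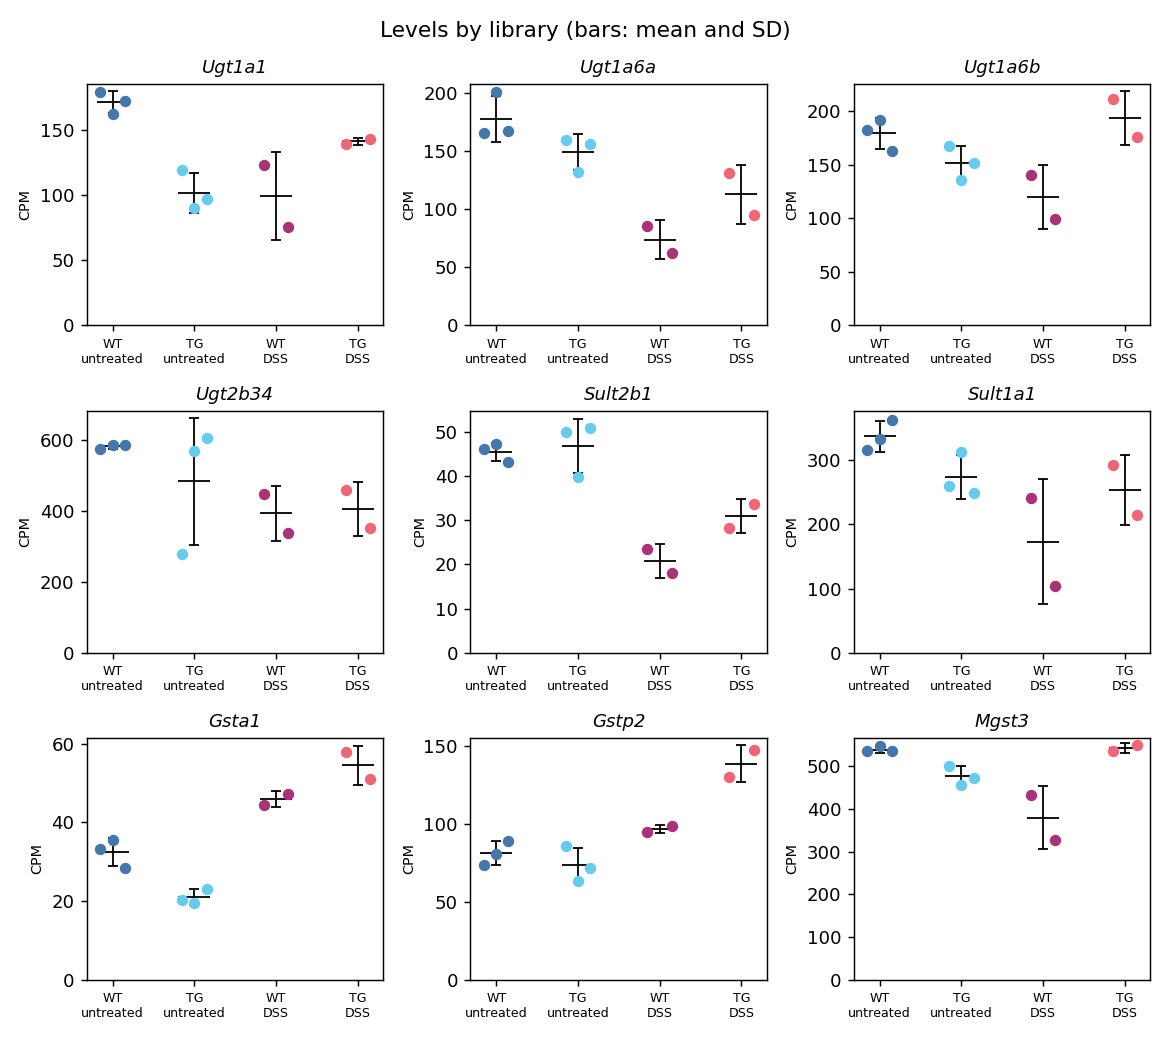
CPM of 9 genes in each library (points) with the mean and SD of each group (bars), all axes starting at 0. Ugt1a6a and Sult2b1 are lowest in WT after DSS, Gsta1 and Gstp2 are highest in TG after DSS, and 1 untreated TG library lies apart for Ugt2b34 (277 CPM against 568 and 604).

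The genotypes were then compared without treatment. TG mice had less Ugt1a1 and less Gsta1, the 2 of 38 genes that passed, both lower, beside 3.70% of all genes tested (1.44% as lower, 2.26% as higher). Ugt1a1 had 179, 162 and 172 CPM in untreated WT and 119, 89.7 and 96.7 CPM in untreated TG. Every TG library lay below every WT library (log2 fold change -0.75, SE 0.17, adjusted p = 0.042). Gsta1 had 33.2, 35.5 and 28.5 CPM in WT and 20.4, 19.5 and 23.2 CPM in TG, again without overlap (-0.62, SE 0.12, adjusted p = 0.0239). A further 5 genes had an unadjusted p under 0.05: Ugt1a2, Ugt8a, Ugt2b36 and Gsta4, which were lower, and Gstk1, which was higher. DESeq2 also called Ugt1a2 (-1.85, adjusted p = 0.0204) and Ugt8a (-1.22, adjusted p = 0.0465) as lower, beside 7.4% of all genes. Ugt1a2 was a low gene, at 2.99, 3.63 and 2.71 CPM in untreated WT and 0.358, 1.48 and 0.744 CPM in untreated TG. The median log2 fold change was -0.10 against -0.02 over all genes, 9 of 10 Ugt genes and 8 of 22 glutathione transferases being below 0. Libraries did not overlap for 2 genes that were higher and 10 that were lower, beside 16.7 and 15.4% of all genes.

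Both calls depended on single libraries. That of Ugt1a1 ended without any untreated WT library (adjusted p 0.109 to 0.121), TG untreated 2 (0.123), TG untreated 3 (0.106) or either TG DSS library (0.0726 and 0.0735). That of Gsta1 ended without any untreated WT library (0.0515 to 0.107) or TG untreated 2 (0.0802). Without TG untreated 1 both stayed, at -0.88 (adjusted p = 0.0203) and -0.60 (adjusted p = 0.028). Scaling to the total count moved the split over all genes from 318 higher and 202 lower to 235 and 382 and left that of the 38 genes at 0 and 2. Large-bowel markers were lower in untreated TG for 3 of 9 tested, with sums of 5845 to 9486 CPM against 9903 to 12494 CPM. Paneth cell markers summed to 1199 to 1294 CPM in TG against 126 to 391 CPM in WT (2 of 4 tested higher), goblet cell markers to 27794 to 38774 against 9276 to 23952 CPM (2 of 7 higher) and fibroblast markers to 39.8 to 118 against 20.4 to 35.9 CPM (3 of 6 higher). The part of these in the results was not tested.

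After DSS, TG and WT were compared with 2 libraries each. No gene of the 38 passed in edgeR, beside 0.185% of all genes tested (0.178% as higher and 0.00711% as lower). At an unadjusted p under 0.05 there were 11, all higher in TG. DESeq2 called 4: Gstp1 (0.47, adjusted p = 0.0403), Mgst2 (0.54, adjusted p = 0.00278), Ugt1a6b (0.68, adjusted p = 0.0405) and Mgst3 (0.51, adjusted p = 0.0359). Over all genes DESeq2 called more than edgeR as well, at 258 (1.83%), 197 higher and 61 lower. The median log2 fold change was 0.25 against -0.01 over all genes, and 32 of 38 genes were above 0 against 48% of all genes. The TG libraries lay above both WT libraries for 21 genes and below both for 0, beside 22.0 and 21.2% of all genes. This comparison and that of DSS in WT share the WT DSS libraries. Large-bowel markers summed to 8579 to 10667 CPM in TG and 4514 to 7069 CPM in WT, and 0 of 9 tested passed (median log2 fold change 0.08). Of other cell markers, 3 of 3 erythrocyte markers passed as higher in TG (3.60). The part of these in the results was not tested.

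Mgst2 came nearest to passing in edgeR, with 139 and 129 CPM in TG against 94.1 and 89.5 CPM in WT (log2 fold change 0.55, 95% interval 0.29 to 0.81, adjusted p = 0.126). The 2 groups were well apart, and the libraries within each close together. Ugt1a6b had the highest fold change, with 212 and 176 CPM against 141 and 99.1 CPM (0.69, 0.29 to 1.10, adjusted p = 0.196). Mgst3 had 535 and 551 CPM against 432 and 328 CPM (0.51, 0.21 to 0.82, adjusted p = 0.2). Gstp1 had 590 and 631 CPM against 413 and 461 CPM (0.48, 0.19 to 0.77, adjusted p = 0.203). For the last 3 genes, too, both TG libraries were above both WT libraries. The count became 1 (Mgst2, adjusted p = 0.0468) without TG untreated 1 and 3 without WT DSS 1, when Sult1a1 (1.29) and Mgst3 (0.73) passed as higher and Gsta3 (-0.78) as lower, against the lone library WT DSS 2.

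Whether the change from untreated to DSS differed between the genotypes was tested by the interaction, in which DSS and sex cannot be told apart. No gene of the 38 passed in edgeR, beside 0.846% of all genes tested (0.526% with the more positive change in TG, 0.320% with the less positive). At an unadjusted p under 0.05 there were 12, in all of which the log2 fold change of DSS was more positive in TG. DESeq2 called 4: Ugt1a1 (1.25, adjusted p = 0.0019), Gsta1 (0.86, adjusted p = 0.00715), Mgst3 (0.68, adjusted p = 0.0166) and Ugt1a6b (0.92, adjusted p = 0.0196). Over all genes DESeq2 called 3.06% in the interaction. Ugt1a1 was nearest in edgeR, with a difference of 1.26 (SE 0.27, 95% interval 0.66 to 1.86, adjusted p = 0.0711), from -0.79 in WT to 0.47 in TG. Gsta1 followed, with a difference of 0.87 (SE 0.19, 0.45 to 1.29, adjusted p = 0.0764), from 0.50 in WT to 1.37 in TG. The log2 fold change of TG against WT was -0.62 for Gsta1 untreated and 0.25 after DSS (edgeR adjusted p = 0.579). For Ugt1a1 it was -0.75 untreated and 0.51 after DSS (edgeR adjusted p = 0.392). Both differences thus use the untreated libraries that gave the genotype calls of these genes. The difference was above 0 in all 10 Ugt genes (median 0.90) and in 5 of 6 Sult genes (0.52). It was above 0 in 15 of 22 glutathione transferases (0.20), while 50.4% of all genes were above 0. The 5 Ugt1a genes among the 10 share sequence, so their directions are not separate observations. Of 9 large-bowel markers tested, 2 passed with the more positive change in TG (median difference 1.26). Of 4 neutrophil markers, 1 passed that way, though their median was -1.23. The part of these in the results was not tested. The count was 4 without TG untreated 1 (Ugt1a1, Gsta1, Gstp2 and Ugt1a6b, adjusted p 0.0217 to 0.0481), beside 2.74% of all genes against 0.846% with all libraries. More genes passed without WT DSS 1 too, among the 38 and over all genes, but there WT DSS 2 alone stands for its group. In that fit Gsta3 had a difference of -0.90, in the opposite direction to Ugt1a1, Ugt1a6b, Sult1a1 and Mgst3.

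The supply of cosubstrates, the exporters of conjugates and the regulators of these genes were followed as lists, whose counts stand beside the shares of all genes tested. For DSS in WT, edgeR called 10.2% higher and 9.62% lower, and for DSS in TG 3.33 and 2.15%. For TG against WT untreated it called 2.26% higher and 1.44% lower. DESeq2 called 22.8% of all genes for DSS in WT, 8.84% for DSS in TG and 7.4% for TG against WT untreated. Between the genotypes after DSS it called 1.83%, and in the interaction 3.06%. For glucuronidation, Ugdh, which makes UDP-glucuronate, fell in WT after DSS. It had 812, 899 and 901 CPM untreated and 434 and 318 CPM after DSS, with a log2 fold change of -1.21 (SE 0.18, adjusted p = 0.00215). The DSS libraries lay below all untreated ones. In TG it had 493, 642 and 679 CPM against 611 and 512 CPM, with overlap (-0.11, SE 0.17, adjusted p = 0.797). Of the 5 genes of that list, 2 were lower (Ugdh and the nucleotide sugar transporter Slc35d1) and 1 higher (Slc35b1) in WT, and 0 passed in TG by edgeR (1 of 5 at an unadjusted p under 0.05, 0 by DESeq2).

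For sulfation, 3 of 9 genes fell in WT after DSS: the PAPS synthase Papss1 (-0.60) and the anion transporters Slc26a2 (-1.13) and Slc26a3 (-1.53). In TG only Papss1 passed of these 9 in edgeR (-0.78, SE 0.10, adjusted p = 0.00185), and DESeq2 called Bpnt1 as lower too. For DSS in WT 9.62% of all genes were lower, and for DSS in TG 2.15%. Papss1 had 235, 225 and 215 CPM in untreated TG and 132 and 131 CPM after DSS. In WT it had 185, 184 and 194 CPM against 129 and 118 CPM, so that it was lower after DSS in both genotypes. Slc26a3 is also among the large-bowel markers.

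For glutathione, 3 of 15 genes rose in WT after DSS, namely the cystine transporter subunit Slc7a11 (1.40), glutathione reductase Gsr (0.89) and G6pdx (0.56), which supplies NADPH. Over all genes 10.2% were higher and 9.62% lower. Slc7a11 was a low gene, at a mean of 1.98 CPM in untreated WT and 5.23 CPM in WT after DSS. A further 5 of the 15 fell: Anpep (-1.51) and Dpep1 (-1.43), which are peptidases of glutathione breakdown, Oplah (-1.13), and Cth (-0.84) and Cbs (-0.61) of cysteine synthesis. In TG, gamma-glutamyltransferase Ggt1 rose from 3.58, 3.9 and 3.78 CPM to 17 and 20.3 CPM (2.31, SE 0.28, adjusted p = 0.00138), and Dpep1 fell (-1.17). Without treatment, Chac1 (2.03), which degrades glutathione, and Cbs (0.63) were higher in TG than in WT, and the other 13 genes did not pass in edgeR. Chac1 was a low gene, at a mean of 1.07 CPM in untreated WT and 4.41 CPM in untreated TG. In this comparison DESeq2 also called Gclc and Anpep, both as lower.

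Of 7 conjugate exporters, 4 fell in WT after DSS, beside 9.62% of all genes: Abcc2 (-2.32), Abcc6 (-1.06), Abcc5 (-0.98) and Abcc3 (-0.67). Abcc2 was a low gene, at 1.7, 3.93 and 3.01 CPM in untreated WT and 0.827 and 0.324 CPM in WT after DSS. None of the 7 exporters passed in TG in edgeR or DESeq2, and 2 had an unadjusted p under 0.05. Of 17 regulators tested, 7 fell in WT, with Nr1i3, the nuclear receptor CAR, at -1.79, Ppara at -1.18, Vdr at -0.93, Rxra at -0.61, the aryl hydrocarbon receptor Ahr at -0.51, the NRF2 target Nqo1 at -0.51 and Nfe2l2, which encodes NRF2, at -0.44. Nr1i3 was low too, at a mean of 3.67 CPM in untreated WT and 1.06 CPM in WT after DSS. None of the 17 passed in TG in edgeR or DESeq2, and 2 had an unadjusted p under 0.05. Of the 4 conjugate hydrolases, Sts (-1.63) was lower in WT after DSS. Nr1i3 (-1.49) and Abcc5 (-0.83) were also lower in untreated TG than in untreated WT. Of all 57 genes tested in these lists, 0 passed in edgeR between the genotypes after DSS (12 at an unadjusted p under 0.05, and Cbs and Nqo1 by DESeq2). In the interaction 0 passed in edgeR, and 23 had an unadjusted p under 0.05 (19 with the more positive change in TG). DESeq2 called 9 in it, among them Ugdh, Nr1i3, Ppara and Nqo1, beside 3.06% of all genes.

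Promoter sequence was looked at because NRF2, the aryl hydrocarbon receptor, HNF1, HNF4 and CDX factors are known regulators of genes of these families. RefSeq (GRCm38.p6) gave the 250 bases before a start site for 35 of the 38 genes, and each motif was searched on both strands. The antioxidant response element core TGACNNNGC was in the windows of 4 genes (11.4%, against 11.5% of 27025 genes): Gsta3, Gstm5, Gstm7 and Mgst1. The aryl hydrocarbon response element core GCGTG was in 8 (22.9% against 30.9%) and the CDX motif TTTATNG in 1 (2.86% against 11.3%). The HNF1 palindrome and CAAAGTCCA for HNF4 were in none of them (0.0111 and 0.451% of all genes). A part of any match in the changes was not tested. Gsta1, which passed as higher in both genotypes after DSS, had no antioxidant response element core in its window. The search covered only 250 bases before the start, so a core farther away would not have been seen. Mgst1 is the 1 gene among the 4 with that core that passed as higher in both. In WT this call of Mgst1 held in only 4 of 12 alternatives other than left-out libraries. The 60 bases around its match, at -56 from the start, lie at chr6:138140447-138140506 on the plus strand and show the match, on the minus strand, in capitals.
Mgst1: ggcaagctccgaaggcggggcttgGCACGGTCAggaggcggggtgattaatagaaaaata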

How the data were processed

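Poly-A RNA of mouse intestine was measured in 10 libraries, grouped by genotype and treatment from the labels. The authors deposited, per library and gene, an expected count as RSEM gives it (per the file headers), an FPKM value, which scales counts to gene length and library size, and a gene length. Tools named in the submitters' processing notes, with no role given, were RSEM 1.2.12, Bowtie2 2.2.5 and HISAT2 2.0.4, and the build was mm10. Genes missing from a table were set to 0, since tables list only FPKM of 0.01 or more.

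Expected counts were rounded, TMM-scaled and filtered with filterByExpr (minimum count 10, total 15), which kept 14072 genes and all 38 described here. Splitting of reads between copies can therefore move a gene's value. The quasi-likelihood fit of edgeR 4.0.16 (R 4.3.3) used all 10 libraries, a mean for each group and 6 residual degrees of freedom, with 5 contrasts and Benjamini-Hochberg adjustment over all genes at 0.05. Standard errors are the log2 fold change over the root of F, and intervals use the t distribution of the same fit. The share of all genes at an unadjusted p under 0.05 was not counted, so counts at that threshold stand without it. CPM compare 1 gene across libraries, and FPKM compare genes.

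Genes named with values were, per contrast, the 6 largest passing changes in each direction with a mean of at least 1 CPM, the 10 highest by mean FPKM, and up to 4 passing genes of each list. Others among the 38 (such as Ugt1a6b, Ugt2b35, Sult1d1, Sult1b1 and Gsta3) were added after their values were seen, as were the passing genes of the glutathione and regulator lists beyond 4 and the further genes given for TG untreated 1. The genes and lists were chosen with earlier results of these data known. Shared sequence was counted as 50-base windows in GENCODE M21 transcripts. On simulated counts for the same 14072 genes, edgeR recovered 70.1% of 2-fold changes between untreated genotypes, 51% between genotypes after DSS, 49.5% for DSS in WT, 50.5% for DSS in TG and 20.6% for the interaction.

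Alternatives were DESeq2 1.42.0 and its size factors, upper quartile and total count scaling, no filter or 1 CPM in 5 libraries, a replicate block, fits restricted to the groups of a contrast, limma 3.58.1 on log2(FPKM + 1) or log2(FPKM + 0.1), robust empirical Bayes, and leaving out each library.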

Additional observations from a re-analysis of the deposited data

How the results depend on the processing

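Leaving out 1 library at a time gave 0 to 3 passing genes for TG against WT untreated (2 with all libraries), 0 to 3 after DSS (0), 2 to 17 for DSS in WT (14), 1 to 7 for DSS in TG (5) and 0 to 5 for the interaction (0). The count over all genes moved with the library left out as well. DESeq2 gave 4 genes in each genotype comparison, beside 7.4% of all genes untreated and 1.83% after DSS. In the interaction DESeq2 gave 4, beside 3.06%, and total count scaling, no low-count filter and both filtered limma fits gave 1 (Ugt1a1). Fitting only the groups compared gave 3 for DSS in TG. With the replicate number as a block the counts were 0 for TG against WT untreated, 6 for DSS in WT and 3 for DSS in TG. The shares of all genes there were 1.18, 11.5 and 2.53%. Deviations of same-numbered libraries from their group means correlated at -0.29 to 0.206. In groups of 2 libraries these deviations mirror each other, so the correlations cannot decide whether the numbers pair the libraries. None of the genes chosen by the naming rule changed direction, in the comparison it was chosen for, under any alternative run; genes added later were not followed here. For all genes, the filtered limma fits moved the higher and lower calls to 225 and 331 (pseudocount 1) untreated, 990 and 1573 for DSS in WT and 363 and 315 for DSS in TG. Mgst1 in WT and Mgst2 in TG passed in only 4 of 12 alternatives other than left-out libraries. Groups of 2 and 3 limit precision, and no DSS result can be separated from sex.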

Other observations

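In the untreated TG library that stood apart, several conjugation genes and partners were low. The Gst and Mgst genes as a sum were not: they stood at 2908 CPM there, the highest of the group, against 2349 and 2509. Low genes included Ugt2b and Sult genes of 1 region of chromosome 5 (GRCm38.p6). Ugt2b34 (86889770 to 86906937) had 277 CPM in TG untreated 1 against 568 and 604 CPM in the rest of the group. Ugt2b5 (87124946 to 87140340) had 30.5 CPM against 61.1 and 57.4. Between them Ugt2b35 (87000860 to 87013274) differed less, with 32.4 CPM against 43.5 and 41.1, inside the 30.8 to 44.5 of untreated WT. Sult1b1 (87513327 to 87538195) had 94.9 CPM against 147 and 133, and Sult1d1 (87554650 to 87569006) had 155 against 333 and 295. Each was the lowest of its group, and for Ugt2b34 and Sult1b1 the value was also below all 4 DSS libraries. Genes elsewhere were low there too: Ugp2 on chromosome 11 had 102 CPM against 213 and 206, Slc35a3 on chromosome 3 had 116 against 265 and 213, Impad1 on chromosome 4 had 43 against 107 and 103, and the exporter gene Abcg2 on chromosome 6 had 32.5 against 66 and 64.7. In the same library the leukocyte gene Ptprc had 8.94 CPM against 56.9 and 79.5, the large-bowel markers summed to 5845 CPM against 9397 and 9486, and Mki67, a gene of cycling cells, had 44.4 CPM against 159 and 174. The part of these in the levels of the conjugation genes was not tested.

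Gsta3, an alpha class gene, differed between the WT DSS libraries, with 36.2 CPM in WT DSS 2 and 15.6 CPM in WT DSS 1, against 19.5 to 23.2 CPM in the untreated libraries and 20.6 and 21.7 CPM in TG after DSS.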
